A study of Mus musculus with 8 samples.

Results

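The 44 genes described here encode the machinery that copies DNA, and they were taken as a list of origin licensing, helicase, polymerase and nucleotide supply genes, with some of their partners at the fork. The list names genes by their role and its rule uses no measured value, although it was drawn up with earlier results of these data known. All 44 were found among the 55291 gene symbols of the count table, and all 44 were among the 26820 genes tested. RNA came from the ventricles of E10.5 mouse embryos on a C57BL/6 background (C57BL/6N for the colony). It was sequenced in 4 libraries of Pkn2 cKO embryos, which were Pkn2 fl/fl with XMLC2-Cre, and in 4 libraries of control littermates, which were Pkn2 fl/fl without Cre. Both groups therefore carried the floxed alleles, and no control had Cre with unfloxed Pkn2. XMLC2-Cre drives recombination in cardiomyocytes, while ventricular tissue also holds endocardial, epicardial, mesenchymal and blood cells, so that each value is a mixture over cell types. In such bulk RNA, fewer cells of a type and less RNA per cell cannot be told apart.

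Before S phase, the origin recognition complex, Cdc6 and Cdt1 load the MCM helicase onto origins, and geminin (Gmnn) holds Cdt1 back once origins have fired. Cdc45 and the GINS complex then turn the MCM ring into an active helicase, DNA polymerase alpha with primase starts each strand, polymerases delta and epsilon extend them on the PCNA clamp, and Fen1 and DNA ligase I (Lig1) seal the lagging strand. Ribonucleotide reductase and thymidylate synthase supply the deoxynucleotides, and many of these genes are transcribed in G1 and S phase under E2F factors. At E10.5 the ventricular wall grows mainly through division of its cardiomyocytes, and the comparison asks whether transcripts of the replication machinery differed when these cells had lost Pkn2.

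Transcript levels per length spanned a wide range within the list. Pcna, the sliding clamp, had the highest mean level at 259 TPM (the authors' length-scaled abundance), followed by the ribonucleotide reductase subunits Rrm2 at 188 TPM and Rrm1 at 156 TPM and the helicase subunit Mcm7 at 141 TPM. The 6 MCM subunits lay close together, from 87.1 TPM for Mcm4 to 141 TPM for Mcm7. The lowest level was that of Orc1, the largest subunit of the origin recognition complex, at 7.05 TPM, below Gins3 at 15.2 TPM and the catalytic subunit of polymerase alpha, Pola1, at 18.4 TPM. The 44 genes summed to 2901 ± 215 TPM in cKO and 3025 ± 82.4 TPM in control libraries (mean ± SD, n = 4 each). In raw counts they took 0.427%, 0.454%, 0.431% and 0.379% of the reads in cKO replicates 1 to 4, and 0.452%, 0.442%, 0.432% and 0.448% in control replicates 1 to 4. The cKO and control shares overlapped, and the lowest of all 8 was cKO replicate 4.

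**Figure D1:**
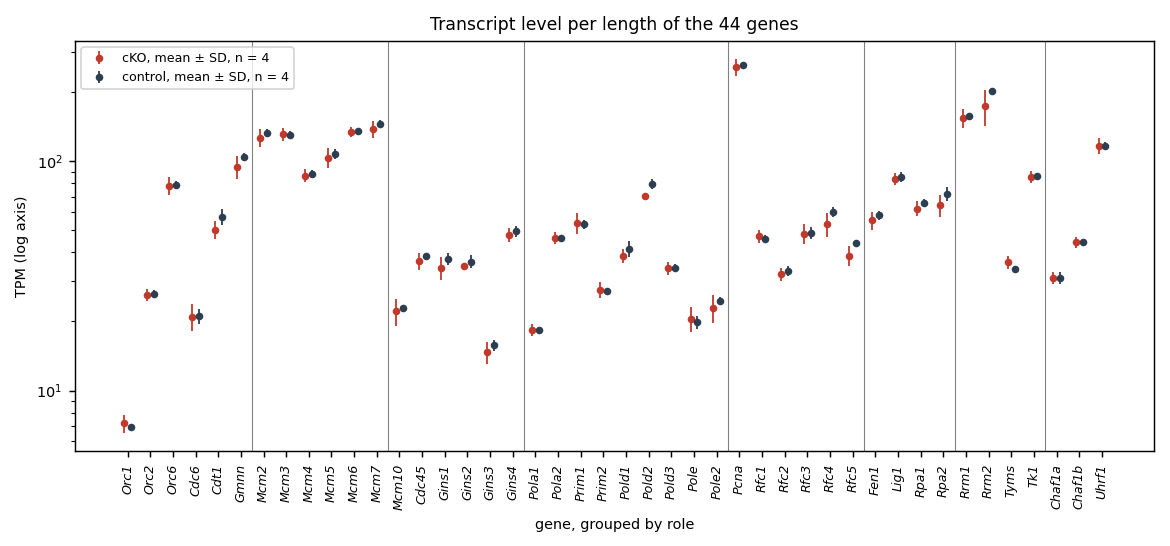
Mean TPM on a log axis for each of the 44 genes, grouped by role, with red points for cKO and dark points for control and bars of 1 SD over 4 libraries. Levels run from 7.05 TPM for Orc1 to 259 TPM for Pcna, and the bars of the groups overlap for most genes.

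Promoters of 36 of the 44 genes were given in RefSeq on GRCm38.p6, each from 250 bases before to 50 bases after the transcript start. A set of E2F-type 8-mers (TTTGGCGC, TTTCCCGC, TTTCGCGC and TTTGCCGC, on either strand and allowed to overlap each other) was found in the promoters of 15 of these 36 genes (41.7%). The same letters were found for 704 of all 27025 genes with a promoter (2.6%), for 8 of 32 other replication genes (25%) and for 1 of 16 mitotic genes (6.25%). The CCAAT pentamer was found in 23 of the 36 (63.9%), in 41.1% of all genes and in 14 of 16 mitotic genes. The promoters below are shown because they carry these letters at genes of the pre-replicative complex and at Rrm2, the member with the lowest cKO level relative to control. Each sequence runs 5′ to 3′ on the strand of its gene, and capitals mark the bases covered by E2F-type 8-mers, or by CCAAT in Rrm2.
Mcm6: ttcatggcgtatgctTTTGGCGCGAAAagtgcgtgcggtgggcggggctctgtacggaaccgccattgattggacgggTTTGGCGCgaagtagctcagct
Mcm5: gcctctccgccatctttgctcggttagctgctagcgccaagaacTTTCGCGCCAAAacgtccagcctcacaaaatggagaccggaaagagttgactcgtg
Orc1: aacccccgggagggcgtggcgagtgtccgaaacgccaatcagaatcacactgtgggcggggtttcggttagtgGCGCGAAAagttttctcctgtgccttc
Cdt1: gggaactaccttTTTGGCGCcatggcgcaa
Rrm2: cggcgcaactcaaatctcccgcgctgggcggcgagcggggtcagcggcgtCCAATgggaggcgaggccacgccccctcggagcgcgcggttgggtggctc
The Mcm6 stretch lies at chr1:128359731-128359830 on the minus strand, 125 to 26 bases before the transcript start, and holds 3 matches, of which a pair overlaps. The Mcm5 stretch lies at chr8:75109312-75109411 on the plus strand, 197 to 98 bases before the start, and holds 2 overlapping matches. The Orc1 stretch lies at chr4:108579354-108579453 on the plus strand and the Rrm2 stretch at chr12:24708154-24708253 on the plus strand, each covering the 100 bases before the start. All starts here are RefSeq transcript starts, which can differ from those of the deposited gene positions. The deposited position of Rrm2 begins at 24708241, inside the stretch shown. The Cdt1 site lies after the start, so only 30 bases are shown, at chr8:122568035-122568064 on the plus strand, 21 to 50 bases into the transcript. A match describes the letters alone and not binding by any factor.

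Genes with and without the 8-mers had similar medians in the comparison of the groups. Of the 15 genes with a match, 14 had a lower cKO mean and the median log2 fold change was −0.06, and of the 21 without a match, 20 had a lower cKO mean and the median was −0.07. Without cKO replicate 4 these became 9 of 15 with a median of −0.0012 and 11 of 21 with a median of −0.0064. The 8 genes with no promoter in the table had a median of −0.07.

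The targeted gene followed the labels. Pkn2 was at 81.2 ± 3.07 CPM (counts relative to the TMM-adjusted library total) in cKO and 144 ± 9.85 CPM in control, or 56.3% of the control level, with cKO replicate 4 at 84.3 CPM, the highest of the cKO group. Libraries held 47559845 to 56660938 counts, and the lowest count of any member in any library was 251. Counting error and the spread between libraries were not separated for each value.

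None of the 44 genes passed the test. In the edgeR quasi-likelihood test, with p adjusted over all genes by the Benjamini-Hochberg method, 0 members were called lower and 0 higher at an adjusted p of at most 0.05, against 0.343% and 0.515% of all genes tested (0.858% in either direction), and the lowest adjusted p among the members was 0.154, for Cdt1. At an unadjusted p under 0.05 the test found 7 members lower in cKO and 0 higher, which is 15.9% of the members against 6.2% of all genes on the lower side, where 6.61% of all genes were on the higher side. DESeq2 and limma-voom likewise called 0 members and found 7 at an unadjusted p under 0.05, and limma on log2(TPM + 1) called 0 and found 3. The count of 7 became 4 without cKO replicate 4, without control replicate 1 or without control replicate 4, and 10 without cKO replicate 2. The intervals were narrow, the median 95% interval reaching 0.14 to either side on the log2 scale. All 44 lay within a 1.5-fold change, against 45.1% of all genes tested and 65.2% of the genes kept by edgeR's expression filter. The lowest bound was 71.6% of the control level, for Fen1, and the highest was 117%, for Orc1.

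The direction was shared by most of the list while the size was small. The fitted log2 fold change was below 0 for 41 of the 44 genes (93.2%, against 50.2% of all genes tested), with a median of −0.06 against −0.00085 over all genes, and a median level of 95.9% of control. It ranged from −0.25 for Rrm2 to 0.05 for Tyms. The members share each library and are not independent of each other, and their shared direction rested largely on 1 library, as the next values show.

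Relative to the control mean, the mean log2 CPM of the 44 genes was −0.067, 0.019, −0.051 and −0.233 in cKO replicates 1 to 4, and 0.036, −0.035, −0.048 and 0.047 in control replicates 1 to 4. The mean was −0.033 over cKO replicates 1 to 3 and −0.083 over all 4. Replicate 2 of the cKO group lay within the control range, replicates 1 and 3 lay just below the lowest control library, and replicate 4 lay far below all of them. That library held the lowest of the 8 CPM values for 37 of the 44 genes, against 15.6% of all genes tested, and all 44 genes lay below the control mean there. Without cKO replicate 4, a choice made after these values were seen, 26 of 44 genes were lower in cKO, against 49.5% of all genes, the median log2 fold change was −0.0028, and 15 genes turned from lower to higher. Leaving out any other library gave 36 to 42 genes lower and a median between −0.08 and −0.04.

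**Figure D2:**
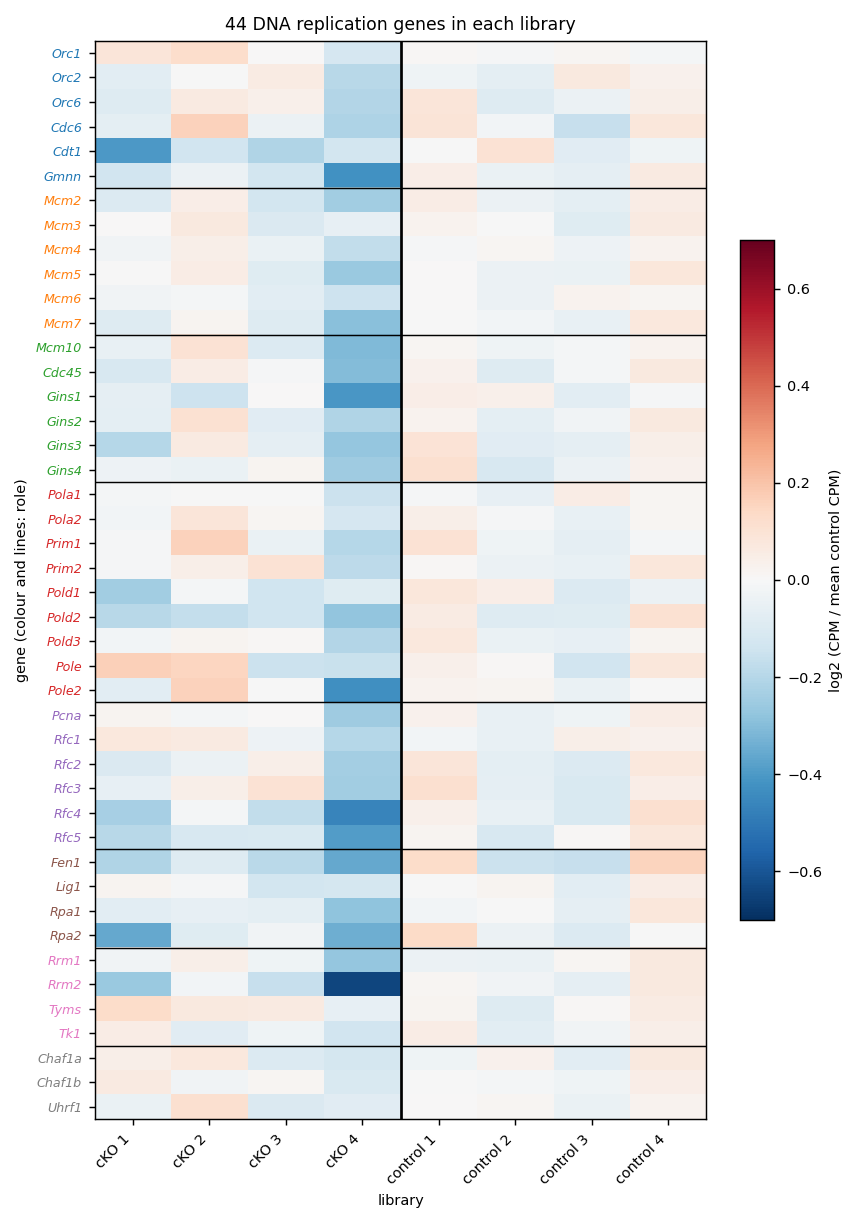
Heat map of the 44 genes (vertical axis, coloured by role) in each of the 8 libraries (horizontal axis), with colour giving the log2 ratio of CPM to the control mean. The column of cKO replicate 4 is blue throughout, with all 44 genes below the control mean, while cKO replicate 2 has 20 genes below it.

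**Figure D3:**
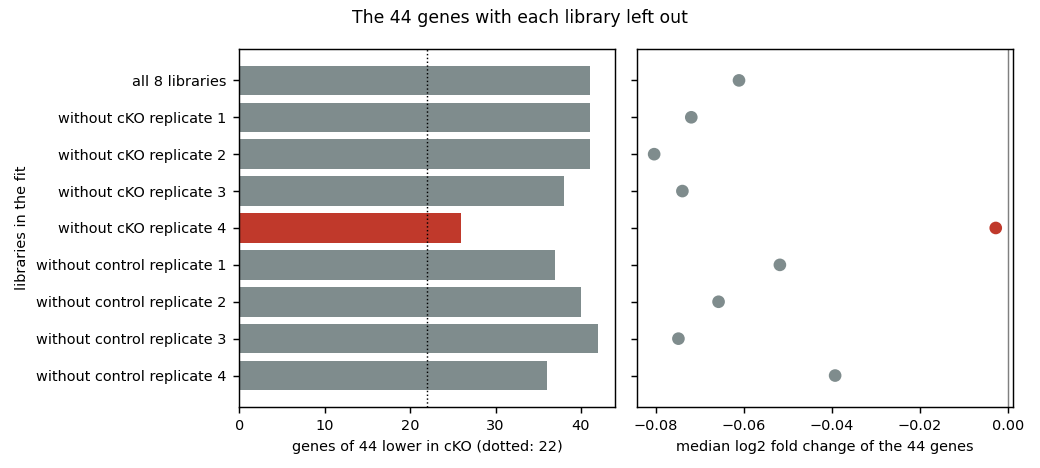
Left, the number of the 44 genes lower in cKO with all 8 libraries and with each library left out, as bars from 0 with 22 genes marked by a dotted line. Right, the median log2 fold change of the 44 genes under the same settings, which moves from −0.06 to −0.0028 without cKO replicate 4, shown in red.

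Origin licensing held 1 of the 2 members whose groups did not overlap (4.55% of the members, against 3.77% of all genes on the lower side). The separation of this gene did not rest on cKO replicate 4. Cdt1, the loading factor of the MCM helicase (chromosome 8 of GRCm38, 122568015 to 122573128, plus strand), had 54.5, 65.5, 62.2 and 65.9 CPM in cKO replicates 1 to 4 and 71.9, 77.3, 68.1 and 70.5 CPM in control replicates 1 to 4. The highest cKO value was below the lowest control value, and the lowest value was in cKO replicate 1, not in replicate 4. The means were 62.0 ± 5.26 and 71.9 ± 3.87 CPM, a log2 fold change of −0.21 (SE 0.0668, 95% interval −0.36 to −0.07), which missed the threshold (Benjamini-Hochberg adjusted p = 0.154, edgeR quasi-likelihood test), and was −0.24 without cKO replicate 4. A two-sided exact permutation test of this gene alone gave p = 0.0286, with no adjustment for the 44 genes. This is the smallest p that 4 against 4 libraries allow. Every gene without overlap gets it, so it adds nothing to the separation for which the gene is named. Its span lies inside that of Galnt2l on the same strand, which had 0 counts in all libraries.

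The other licensing genes had smaller log2 fold changes. Geminin, the inhibitor of Cdt1, had a log2 fold change of −0.17 (95% interval −0.33 to −0.02) that was −0.09 without cKO replicate 4. Orc1 had 10.2, 10.5, 9.68 and 8.89 CPM in cKO and 9.70, 9.60, 9.75 and 9.58 CPM in control replicates 1 to 4, so that the cKO libraries lay on both sides of the control values. Its log2 fold change was 0.03 (interval −0.17 to 0.22), and those of Orc2, Orc6 and the loader Cdc6 were −0.05, −0.05 and −0.04. Median log2 fold changes over the 6 licensing genes were −0.05 with all libraries and 0.0075 without cKO replicate 4.

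The MCM helicase itself was measured at nearly the same level in both groups. All 6 subunits had a lower cKO mean, with log2 fold changes from −0.02 for Mcm3 to −0.11 for Mcm7 and intervals that all included 0. Mcm2, Mcm4, Mcm5 and Mcm6 had −0.10, −0.05, −0.07 and −0.06. Without cKO replicate 4 the median of the 6 was −0.02. The genes that activate the helicase had similar values. Cdc45 had −0.09, Mcm10, which helps fork assembly, had −0.08, and the GINS subunits had −0.14 for Gins1, −0.06 for Gins2, −0.11 for Gins3 and −0.08 for Gins4. All 6 of these were lowest in cKO replicate 4, and their median went from −0.08 to −0.01 without it.

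Among the polymerases, Pold2, the second subunit of polymerase delta (chromosome 11, 5872180 to 5878292, minus strand), was the other member whose groups did not overlap. It had 65.2, 66.5, 67.8 and 61.5 CPM in cKO replicates 1 to 4 and 77.7, 70.0, 70.3 and 80.3 CPM in control replicates 1 to 4. The highest cKO value stayed below the lowest control value, and the order did not rest on cKO replicate 4. The log2 fold change was −0.19 (SE 0.061, 95% interval −0.32 to −0.06) and −0.16 without that library. The two-sided exact permutation p of 0.0286 again followed from the lack of overlap alone. By the edgeR quasi-likelihood test Pold2 had an adjusted p of 0.161 after Benjamini-Hochberg adjustment. Its adjusted p over all alternatives reached 0.0663, the lowest of any member. Cdt1 and Pold2 were thus the 2 members without overlap on the lower side, 4.55% of the members against 3.77% of all genes, with 0 on the higher side against 3.14% of all genes.

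The rest of the polymerase group showed no such separation. The catalytic subunit Pold1 had a log2 fold change of −0.12 (interval −0.25 to 0.01), which was also −0.12 without cKO replicate 4, and the third subunit Pold3 had −0.05. Pole, the catalytic subunit of polymerase epsilon (chromosome 5, 110286306 to 110337474, plus strand), had 87.2, 86.3, 70.0 and 69.7 CPM in cKO and 79.7, 78.4, 70.8 and 82.2 CPM in control replicates 1 to 4. Its cKO libraries fell into a higher and a lower pair around the control values, and the log2 fold change was 0.01 (interval −0.16 to 0.18). Its partner Pole2 had −0.07.

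Polymerase alpha and primase, which start each strand, were nearly level between the groups. Pola2, the second subunit of polymerase alpha, had 62.9, 67.7, 64.4 and 58.7 CPM in cKO and 65.6, 63.4, 61.5 and 64.4 CPM in control replicates 1 to 4. The large primase subunit Prim2 had 30.4, 31.4, 32.8 and 26.9 CPM in cKO and 30.8, 29.7, 29.5 and 32.2 CPM in control replicates 1 to 4. For both genes the highest and the lowest library of all 8 were cKO libraries, and both log2 fold changes were −0.01, with intervals of −0.13 to 0.11 and −0.16 to 0.14. Pola1 and the small primase subunit Prim1 had −0.04 and −0.02.

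Within the clamp loader, which places the clamp on DNA, the small subunits Rfc4 and Rfc5 had the lowest log2 fold changes. Rfc4 (chromosome 16, 23113943 to 23127737, minus strand) had 34.2, 39.9, 35.6 and 29.2 CPM in cKO and 41.2, 38.7, 37.3 and 43.4 CPM in control replicates 1 to 4. Rfc5 (chromosome 5, 117378103 to 117389047, minus strand) had 54.7, 57.8, 58.2 and 47.7 CPM in cKO and 63.4, 58.0, 63.0 and 66.1 CPM in control replicates 1 to 4. In each gene 3 of the 4 cKO libraries lay under all control values, with cKO replicate 2 above the lowest control for Rfc4 and cKO replicate 3 for Rfc5. The log2 fold changes were −0.21 (SE 0.084, adjusted p = 0.293) and −0.20 (SE 0.0684, adjusted p = 0.206) (edgeR quasi-likelihood test, Benjamini-Hochberg adjustment), and both were −0.13 without cKO replicate 4. The large subunit Rfc1 and the subunits Rfc2 and Rfc3 had −0.02, −0.08 and −0.03, and the clamp Pcna had −0.06, or 0.01 without cKO replicate 4. Pcna has processed pseudogene copies, and how shared reads were assigned is not given in the sources used here.

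On the lagging strand, all 4 genes had lower cKO means, and their median log2 fold change was −0.16, or −0.10 without cKO replicate 4. The subunits of the single-strand binding protein RPA had −0.12 for Rpa1 and −0.19 for Rpa2 (interval −0.36 to −0.03, Benjamini-Hochberg adjusted p = 0.298 by the edgeR test), and Lig1 had −0.06. The flap endonuclease Fen1 (chromosome 19, 10199132 to 10204169, minus strand) had 5.12, 5.57, 5.20 and 4.62 CPM in cKO and 6.49, 5.33, 5.30 and 6.59 CPM in control replicates 1 to 4. These values overlapped between the groups, and the log2 fold change of −0.21 had the widest interval of the list (−0.48 to 0.06). Fen1 also stood apart between the deposited tables: it had 0.0977 CPM per TPM, against a median of 1.40 over the members and 0.553 for the next lowest. In TPM it was at 56.6, and its log2 fold change was −0.07. Its span shares 3253 of 5038 bases (64.6%) with the opposite-strand gene Gm10143 and 156 bases with Tmem258, and the part of this overlap in the low count was not tested.

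Nucleotide supply held both ends of the list. Rrm2, the regulatory subunit of ribonucleotide reductase (chromosome 12, 24708241 to 24714146, plus strand), had 209.9, 248, 225 and 161 CPM in cKO and 254, 247, 241 and 263 CPM in control replicates 1 to 4. The value in cKO replicate 4 lay far below the rest, while cKO replicate 2 lay within the control range. The means were 211 ± 36.7 and 251 ± 9.62 CPM, a log2 fold change of −0.25 (SE 0.0953, 95% interval −0.45 to −0.05, Benjamini-Hochberg adjusted p = 0.259 by the edgeR test), and −0.14 without cKO replicate 4. Thymidylate synthase (Tyms; chromosome 5, 30058827 to 30073617, minus strand) had 65.6, 62.9, 62.6 and 57.6 CPM in cKO and 60.7, 56.4, 60.3 and 62.4 CPM in control replicates 1 to 4. Here 3 cKO libraries were above every control library, and the log2 fold change was 0.05 (interval −0.07 to 0.18), or 0.10 without cKO replicate 4. The catalytic subunit Rrm1 had −0.07 and thymidine kinase Tk1 had −0.05. The chromatin genes that act behind the fork lay close to 0, with −0.02 and −0.01 for the histone chaperone subunits Chaf1a and Chaf1b and −0.03 for Uhrf1, which guides maintenance methylation.

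**Figure D4:**
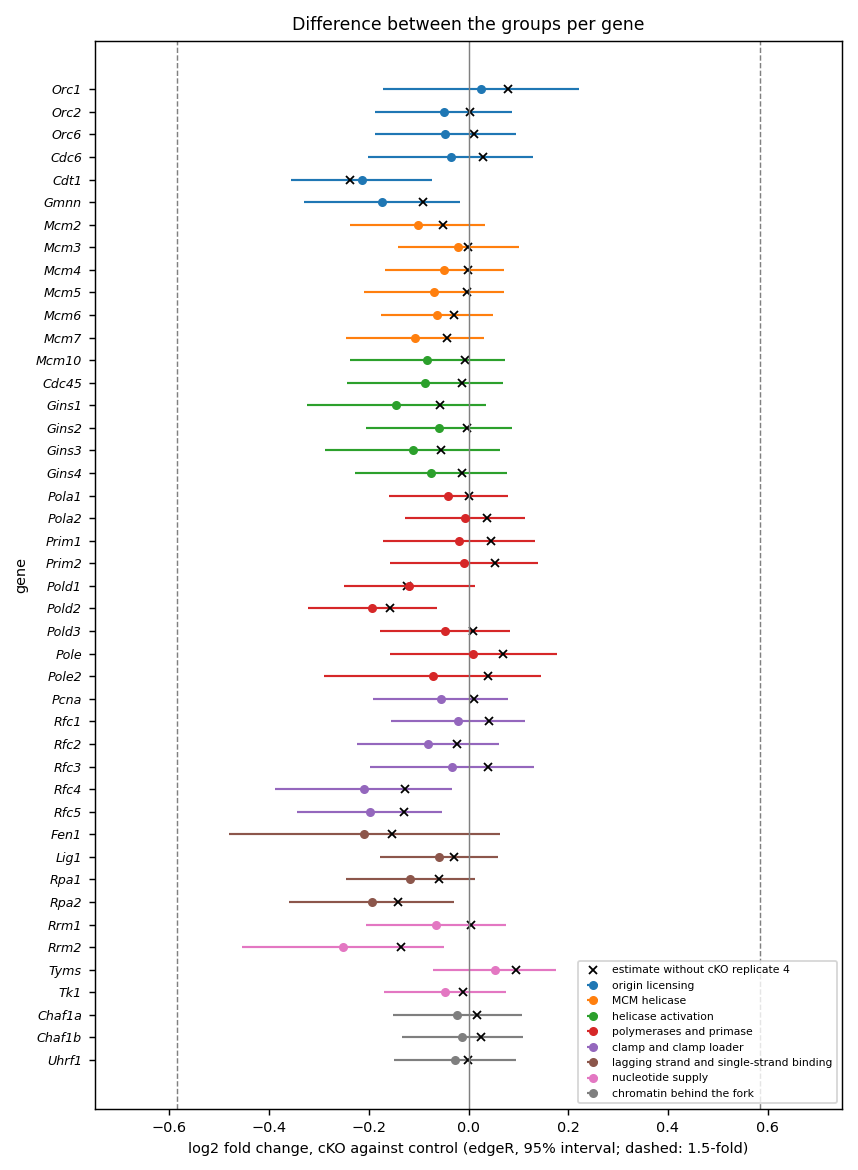
Log2 fold change of cKO against control for each of the 44 genes (points, coloured by role) with 95% intervals from edgeR, dashed lines at a 1.5-fold change, and crosses for the estimate without cKO replicate 4. All intervals lie between the dashed lines, 7 exclude 0, and most crosses lie to the right of their points.

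The length-scaled values gave a smaller difference. On the log2(TPM + 1) scale, 33 of the 44 genes were lower in cKO, against 44.8% of all genes, with a median of −0.04 against 0.01 over all genes, and 36 genes had the same sign as in the counts. The 3 genes at an unadjusted p under 0.05 were Cdt1, Pold2 and Rfc5 (log2 differences of −0.18, −0.16 and −0.18), all lower, where 4.55% of all genes met that condition.

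A list of 38 other replication genes was described by the same rule. By the edgeR quasi-likelihood test 0 of them were called, 32 were lower in cKO, the median log2 fold change was −0.07, and 7 lower (18.4%, against 6.2% of all genes) and 0 higher had an unadjusted p under 0.05, while DESeq2 called 3 (Pole4, Dut and Rnaseh2b). Without cKO replicate 4, 24 were lower, with a median of −0.04. Pole4, a histone-fold subunit of polymerase epsilon, had 40.7 ± 4.29 CPM in cKO and 49.9 ± 2.41 CPM in control, with no overlap, a log2 fold change of −0.29 (adjusted p = 0.0802, edgeR quasi-likelihood, Benjamini-Hochberg) and −0.31 without cKO replicate 4. Dut, which removes dUTP from the nucleotide pool, had −0.29, and Rnaseh2b, a subunit of the nuclease that removes ribonucleotides from DNA, had −0.26. Groups also did not overlap for Rnaseh2b, the clamp loader subunit Dscc1, Orc4 and deoxycytidine kinase Dck, all lower in cKO, which with Pole4 makes 5 of 38 genes (13.2%, against 3.77% of all genes).

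Regulators and later cell cycle genes are given beside these values. Of 19 E2F, DP, pocket protein and MuvB genes, 13 were lower in cKO (68.4%, against 50.2% of all genes), with a median of −0.05. The edgeR test called 0 of them, and 1 was lower at an unadjusted p under 0.05 (5.26%, against 6.2% of all genes). Without cKO replicate 4, 13 were lower and the median was −0.02. E2f1 was the 1 gene of this list without overlap, at 40.0 ± 2.12 CPM in cKO and 43.8 ± 0.89 CPM in control. This is 5.26% of the list, against 3.77% of all genes without overlap on the lower side. Of 20 mitotic genes, 17 were lower (85%, against 50.2% of all genes), with a median of −0.11 and 0 called. By the edgeR test 6 were lower at an unadjusted p under 0.05 (30%, against 6.2% of all genes). The mean log2 CPM of the mitotic genes relative to the control mean was also lowest in cKO replicate 4 (−0.24). Without that library 14 were lower, with a median of −0.05. Cyclin A2 (Ccna2), which acts in S phase and G2, had −0.27. Ccna2 and Ccnb2, both lower in cKO, were the mitotic genes without overlap (10%, against 3.77% of all genes).

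Among the marker lists, those of endothelial cells and macrophages were set apart between the groups. All 15 endothelial and endocardial markers were higher in cKO and 7 were called, where 0.515% of all genes were called higher. Their summed levels were 835 to 1093 TPM in cKO and 640.0 to 766 TPM in control. The mean log2 CPM relative to control was 0.67, 0.27, 0.20 and 0.73 in cKO replicates 1 to 4. All 12 macrophage markers were higher and 2 were called, with summed levels of 67.4 to 96.9 TPM in cKO and 42.4 to 58.3 TPM in control. Most of these sums was Lyz2, at a mean of 50.1 TPM in cKO and 40.4 TPM in control, with overlapping groups in CPM. The called genes C1qb and C1qc had only 10 to 199 and 10 to 167 counts per library. Of 15 cardiomyocyte markers 11 were lower and 0 were called, with summed levels of 54706 to 57163 TPM in cKO and 54796 to 58439 TPM in control, so the labelled tissue was cardiac by its markers. Nkx2-5, lower in cKO, was the 1 cardiomyocyte marker without overlap (6.67% of the list, against 3.77% of all genes), with 0 on the higher side. Its log2 fold change was −0.32 (Benjamini-Hochberg adjusted p = 0.109 by the edgeR test), and −0.35 without cKO replicate 4. Summed levels of the 12 erythroid markers overlapped (4377 to 15047 and 4838 to 14132 TPM), and their log2 mean was 0.51, −0.45, 0.33 and 0.97 in cKO replicates 1 to 4 and 0.07, −0.52, 0.94 and −0.49 in control replicates 1 to 4. Epicardial markers (7 of 10 lower), hepatic markers (7 of 8 tested lower, with Alb and Serpina1a under the count filter) and cushion mesenchyme markers (5 of 10 lower) gave 0, 0 and 1 called genes. The library with the lowest replication genes, cKO replicate 4, had the highest endothelial, erythroid and epicardial means. The epicardial mean was −0.42, −0.16, −0.12 and 0.30 in cKO replicates 1 to 4. In control replicates 1 to 4 it was −0.03, −0.03, 0.10 and −0.04. Replication means were −0.067 in cKO replicate 1, where the endothelial mean was 0.67. They were −0.048 in control replicate 3, where the erythroid mean was 0.94. The part of cell composition in the replication values was not tested.

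**Figure D5:**
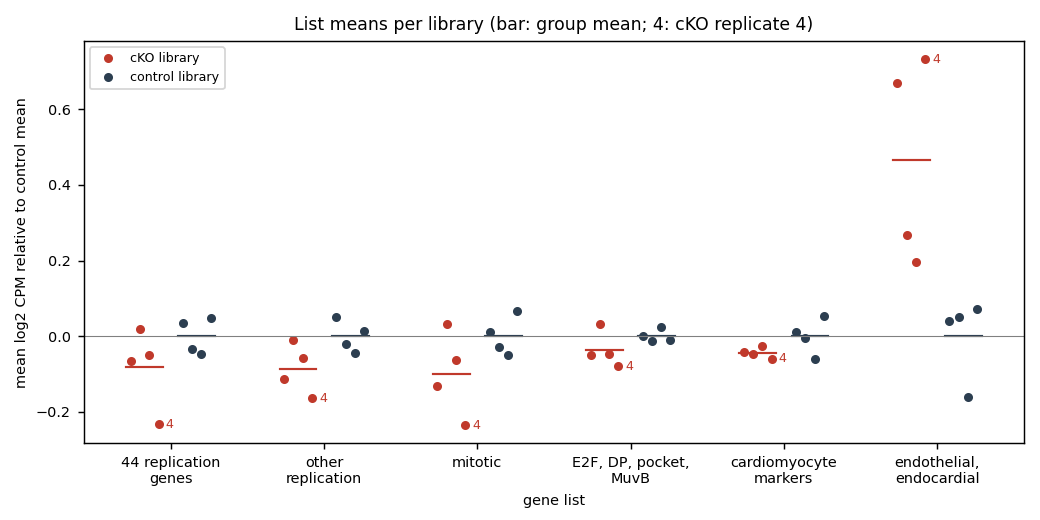
Mean log2 CPM relative to the control mean for 6 gene lists, with a point per library, red for cKO, dark for control, a bar at the group mean and cKO replicate 4 marked 4. For the 44 replication genes cKO replicate 4 lies at −0.23 while the other 7 libraries lie between −0.07 and 0.05, and for endothelial markers all cKO points lie above the control points.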

How the data were processed

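Poly(A) RNA of ventricular tissue was sequenced in 8 libraries, which the labels give as replicates 1 to 4 of each group. P-values measure only the spread between these libraries. The files deposited by the authors hold raw counts for each gene symbol and, in a separate table, TPM values. The submitters' processing notes name Trim Galore 0.6.7, HISAT2 2.2.1, StringTie 2.2.1, featureCounts and GRCm39, but the deposited positions are those of GRCm38. The strand setting is not given in the sources used here, and 23 of the 44 genes overlap another gene. No column was left out.

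The test was the quasi-likelihood F test of edgeR 4.0.16 in R 4.3.3 (TMM scaling, condition as the only term) on genes whose counts summed to at least 8, with Benjamini-Hochberg adjustment over all genes. Alternatives used DESeq2 1.42.0, limma 3.58.1 (voom, and log2 TPM with a pseudocount of 1 or 0.1), other scalings and filters, a trend with gene length removed (loess span 0.3), the replicate number as a block, each library left out and, chosen after seeing the data, edgeR's newer quasi-likelihood fit. The methods were tested on simulated data. Genes shown in every library had no overlap of the groups, or were among the 5 lowest or 5 highest log2 fold changes or the 5 lowest p. The 44 genes and all lists were chosen with earlier results of these data known.

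Replicate numbers were not treated as pairing the libraries. The check used the deviation of each gene's log2 CPM from its group mean. These deviations had correlations of −0.17, −0.02, 0.02 and −0.14 between same-numbered libraries over 14295 genes. These values bear only on the numbering. The sample titles do not name the litter of a library or say if it was a pool of embryos. An effect of litter was therefore not tested.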

Additional observations from a re-analysis of the deposited data

Results flagged for a closer look

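Among the 98 sets of 4 libraries examined for a value far from the rest, 3 stood out, and chance flags about 1 in 20 such sets. All were low values in cKO replicate 4: Pola1 at 50.1 CPM, Pcna at 183 CPM and Rpa1 at 152 CPM, each with a gap to the nearest cKO library that took up most of the range of the group.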

How the results depend on the processing

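Over 21 alternatives none of the 924 values of the 44 genes passed the threshold, the direction held in 860, and the largest of the 64 values with the opposite sign was 0.053 in size. The log2 fold change turned positive for Pola2 and Prim2 with total counts alone (0.0034 and 0.0020) and with edgeR's expression filter (0.0033 and 0.0015), for Pola2 without a filter (0.00011), and turned negative for Pole with the length trend removed (−0.0068) and with the block as well (−0.011). With log2(TPM + 1), with or without a mean of at least 1 TPM, it turned positive for Mcm3 (0.010), Pola1 (0.00030), Pola2 (0.0026), Prim1 (0.016), Prim2 (0.023), Rfc1 (0.034), Chaf1a (0.0031) and Uhrf1 (0.0016), and with log2(TPM + 0.1) for the same genes (0.011, 0.00023, 0.0026, 0.016, 0.024, 0.035, 0.0032 and 0.0016). With each library left out in turn the sign turned for 18 genes: Orc2 (−0.085 to 0.0039), Orc6 (−0.075 to 0.011), Cdc6 (−0.099 to 0.028), Mcm3 (−0.048 to 0.0088), Pola1 (−0.051 to 0.0018), Pola2 (−0.030 to 0.036), Prim1 (−0.074 to 0.045), Prim2 (−0.045 to 0.053), Pold3 (−0.065 to 0.0090), Pole (−0.040 to 0.070), Pole2 (−0.15 to 0.039), Pcna (−0.076 to 0.011), Rfc1 (−0.048 to 0.042), Rfc3 (−0.079 to 0.039), Rrm1 (−0.094 to 0.0049), Chaf1a (−0.047 to 0.016), Chaf1b (−0.033 to 0.026) and Uhrf1 (−0.066 to 0.00016). The number of members lower in cKO was then 26 to 42, with 26 when cKO replicate 4 was left out.

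The genes called over all genes moved more: 230 by the edgeR test as reported, 867 by DESeq2, 878 without a filter, 2 by limma on log2(TPM + 1), 5 on log2(TPM + 0.1), 35 with a mean of at least 1 TPM, and 67 to 744 with each library left out, of which the highest was without cKO replicate 3. Called genes among the other replication genes were 0 in the edgeR test, 3 by DESeq2, 3 without a filter, and 0 to 2 with each library left out, the 2 without cKO replicate 3 being Pole4 and Rnaseh2b. With the replicate number as a block, 380 genes were called over all genes (426 with the length trend removed too), 0 of the 44 were called, 41 were lower and their median was −0.06. The cause of these shifts was not tested.

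The lowest count of a member in a library was 251, for Fen1, so counting error bears on that gene most. The design holds 4 libraries a group, no sorted cells and no cell counts, so values per cell type were not measured here.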
